A study of Mus musculus with 144 samples.

Results

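The transcripts described here are 7 mRNAs encoded by the mitochondrial genome: mt-Nd1, mt-Nd2, mt-Nd4, mt-Nd5 and mt-Nd6 of respiratory complex I, mt-Cytb of complex III and mt-Co1 of complex IV. They were chosen by symbol from the deposited count tables, which hold 21869 genes, 13 of them on the mitochondrial chromosome. They were measured by sequencing polyadenylated RNA from liver and from brown adipose tissue (BAT), the heat-producing fat, in a study of how the hours and the amount of feeding act on daily rhythms of gene expression. The mice were wild-type C57BL/6J males, 6 months old, housed singly with a running wheel under a cycle of 12 h light and 12 h dark. Tissue was then taken every 4 h at 12 collection times over 2 days, in constant darkness per the series text, while the sample labels give the light and dark cycle.

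The file headers give 10 weeks of feeding. Food was always present in the AL regimen. In CR-day-6h and CR-night-6h (here CR-day and CR-night) the mice had 70% of their baseline intake within 6 h from the start of the light or of the dark phase. For both, 10 pellets per day are given. In TR-day-6h and TR-night-6h (TR-day and TR-night) the amount was not limited, but food was again present only for 6 h from the start of light or dark. Liver had all 5 regimens with 24 libraries each, 1 library marked A and 1 marked B at every collection time, and the file headers call these biological duplicates. BAT had AL, with 12 libraries marked A, and CR-day, with libraries marked B, 1 mouse per collection time. Counts were available for 11 of the 12 BAT libraries of CR-day, since the 0 h library had only normalised values.

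Library totals lay between 5830040 and 26649153 counted reads in liver and between 6978002 and 11607273 in BAT. The labelled tissues matched their markers. The summed level of 5 hepatocyte markers lay between 34880 and 122000 CPM (counts scaled to library size) in liver and was at most 1.23 CPM in BAT, and that of 5 brown adipocyte markers lay between 2490 and 6028 CPM in BAT and was at most 0.84 CPM in liver. Skeletal muscle markers, summed over 5 genes, ran from 2.32 to 1774 CPM in BAT AL (median 1342) and from 65.9 to 569.2 CPM in BAT CR-day (median 375.7), so the BAT libraries held muscle RNA in uneven amounts. Its part in the BAT results was not tested.

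Mitochondria carry a small circular genome that is transcribed from both strands into long precursors, which are cut, mostly at the tRNAs that lie between the genes, into the mature mRNAs. Most of the mRNAs receive a short poly(A) tail inside the organelle, and for some of them the tail completes the stop codon. Their proteins are the hydrophobic cores of the respiratory enzymes, which also need many subunits imported from the nucleus. Brown fat is known for its dense mitochondria, where respiration is uncoupled to make heat, and hepatocytes are also rich in mitochondria.

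The last 30 bases of each annotated transcript are shown because they hold the stop codon, whole or in part. They are read from GENCODE vM21 transcripts on build mm10, in the direction of each gene. Capitals mark the stop codon, or the lone last base where the coding sequence ends 1 base into a codon.
mt-Nd1: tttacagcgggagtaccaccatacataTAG
mt-Nd2: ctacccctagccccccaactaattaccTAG
mt-Co1: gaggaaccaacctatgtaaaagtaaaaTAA
mt-Nd4: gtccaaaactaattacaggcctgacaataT
mt-Nd5: attatcttatactcaattaatctcgagTAA
mt-Nd6: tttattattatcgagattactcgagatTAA
mt-Cytb: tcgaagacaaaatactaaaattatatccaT

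In 5 of the 7 the encoded sequence ended with a whole stop codon, TAG in mt-Nd1 and mt-Nd2 and TAA in mt-Co1, mt-Nd5 and mt-Nd6. In mt-Nd4 and mt-Cytb it ended with a single T, so that added adenines are needed to write TAA. On the mitochondrial chromosome, mt-Nd1 spans bases 2751 to 3707, mt-Nd2 3914 to 4951, mt-Co1 5328 to 6872, mt-Nd4 10167 to 11544, mt-Nd5 11742 to 13565 and mt-Cytb 14145 to 15288, all on the plus strand. mt-Nd6 spans 13552 to 14070 and is the only member on the minus strand. The positions and lengths were the same in the deposited table of normalised values. GC content was low in all of them, from 34.1% in mt-Nd6 to 39.9% in mt-Co1. mt-Nd6 held 28.1% G, against 8.0 to 16.1% in the other 6.

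The ends of mt-Nd5 and mt-Nd6 lie on opposite strands and share 14 bases, 13552 to 13565, each gene reading the other's complement. The 40 last bases of both are shown because reads over this stretch belong to one gene or the other only by strand. Capitals mark the shared bases.
mt-Nd5: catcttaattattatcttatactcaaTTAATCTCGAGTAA
mt-Nd6: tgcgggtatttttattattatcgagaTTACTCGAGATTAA

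Whether strand was used in counting, and how reads that map to several places were counted, is not given in the sources used here. Copies of mitochondrial sequence in nuclear chromosomes bear on this, since the members were meant to be those without near-identical nuclear copies. A search of 141730 annotated transcripts found a copy of at least 95% identity over at least 100 bases for 4 of the 7. For mt-Co1 the pseudogene Gm13340 on chromosome 2 matched all 1545 bases at 97.6% identity, and Gm29216 on chromosome 1 matched 483 bases at 99.8%. For mt-Nd4, Gm28439 on chromosome 1 matched 876 bases at 100.0%, for mt-Nd2, Gm13339 on chromosome 2 matched 510 bases at 96.7%, and for mt-Nd5, Gm4076 on chromosome 13 matched 954 bases at 95.2%. At 90% identity, 6 members had a copy, all but mt-Nd1. The levels of these 4 genes are therefore uncertain as absolute values, and comparisons between samples carry more weight here than those between genes.

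The 7 transcripts took 27.8% of all counted reads in the median liver library, between 10.99 and 41.5% over 120 libraries. In BAT they took 61.0% in the median, between 52.2 and 71.1% over 23 libraries. No liver library reached the lowest BAT library. The counted genes held between 72.1 and 91.7% of the read total implied by the deposited RPKM, and shares of that larger total were lower. The other 6 protein-coding genes of the mitochondrial chromosome together took a median of 0.0742% in liver and 0.54% in BAT, so that nearly all reads listed for this chromosome belonged to the 7. Nuclear copies of these 6 genes were not searched, and how reads that map to several places were counted is not given. Their shares are therefore not read as transcript levels.

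Within liver, 2 of the 10 sets of regimen and letter stood apart. Shares in the B libraries of AL ran from 11.7 to 14.8% (median 13.4%), and in the A libraries of CR-day from 10.99 to 15.1% (median 13.9%). Both sets lay below every library of the 8 other sets, whose shares ran from 17.6 to 41.5%. The A libraries of AL had a median of 22.2% and the B libraries of CR-day of 28.95%, while the medians of the 6 sets of CR-night, TR-day and TR-night lay between 26.1 and 31.3%. In BAT the medians of AL and CR-day were both 61.0%.

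**Figure D1:**
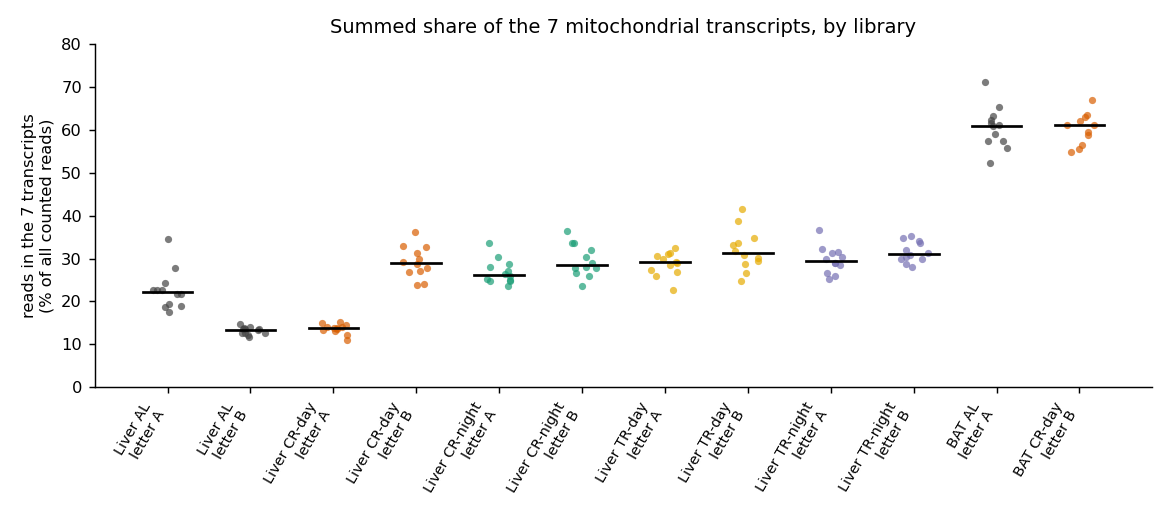
Percent of counted reads that fell in the 7 transcripts, 1 point per library, by set of tissue, regimen and letter. The BAT points lie between 52.2 and 71.1%, above every liver point, and the liver sets AL B and CR-day A lie between 10.99 and 15.1%, below every other liver set.

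The same sets stood apart in the nuclear genes. For each library a GC index was taken as the mean log2 CPM of the nuclear genes in the top 20% by GC content minus that in the bottom 20%. Its median was -0.08 in the B libraries of AL and -0.17 in the A libraries of CR-day, and between -0.99 (the A libraries of AL) and -2.59 (the A libraries of TR-night) in the 8 other sets, so libraries with fewer GC-rich nuclear reads had more mitochondrial reads across these sets. The labels give no batch, preparation date or other difference for the letters. Since all 7 transcripts are poor in GC, each liver comparison of regimens is given below with all libraries, without the sets AL B and CR-day A (an alternative chosen after seeing the data), and with the GC index as a covariate. The part of the library's GC makeup in the members' levels cannot be told apart from the letter or, against AL, from the regimen.

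Levels per length were taken from the deposited RPKM, reads scaled to gene length and to library size. In BAT the median RPKM was 121800 for mt-Cytb, 93610 for mt-Nd2, 82470 for mt-Nd1, 49000 for mt-Nd4, 46310 for mt-Co1, 25560 for mt-Nd5 and 2416 for mt-Nd6. In liver it was 44080 for mt-Cytb, 40510 for mt-Nd2, 36340 for mt-Nd1, 23820 for mt-Co1, 21460 for mt-Nd5, 18620 for mt-Nd4 and 849 for mt-Nd6. mt-Cytb was highest and mt-Nd6 lowest by median RPKM in both tissues.

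Neighbours in this order were not all separate. In BAT, mt-Cytb was above mt-Nd2 in 24 of 24 libraries and mt-Nd1 above mt-Nd4 in 24 of 24, whereas mt-Nd2 was above mt-Nd1 in only 15 and mt-Nd4 above mt-Co1 in only 15. In liver, mt-Nd1 was above mt-Co1 in 115 of 120 libraries and mt-Nd4 above mt-Nd6 in 120, while mt-Cytb was above mt-Nd2 in 85, mt-Nd2 above mt-Nd1 in 74, mt-Co1 above mt-Nd5 in 87 and mt-Nd5 above mt-Nd4 in 98. The median ratio of mt-Cytb to mt-Nd6 in RPKM was 52.8 in liver and 47.1 in BAT. Whether antisense reads are part of the mt-Nd6 values cannot be told, since the strand setting of the counting is not given. How far the selection of polyadenylated RNA captured each transcript was not tested either, so these ratios need not match transcript amounts.

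**Figure D2:**
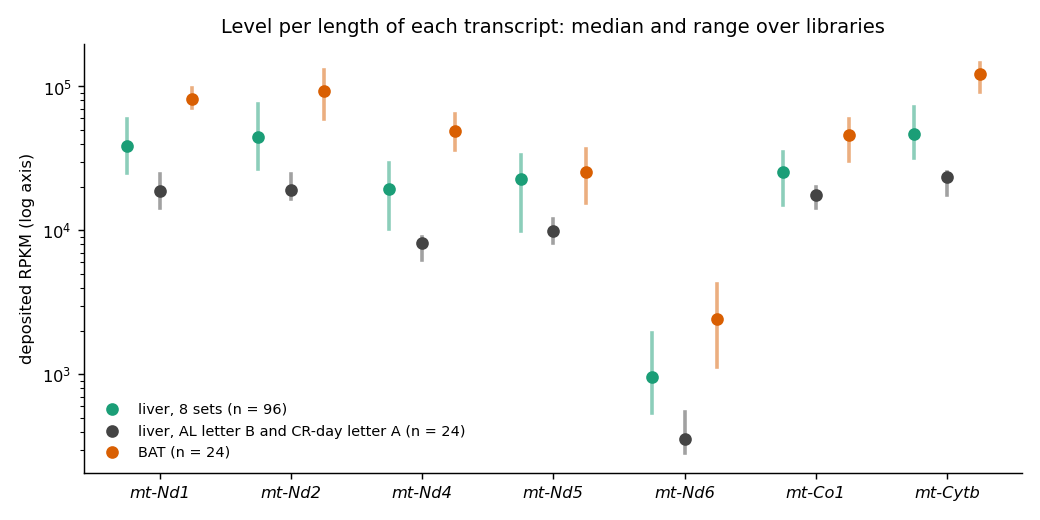
RPKM of each transcript on a log axis, with the median as a point and the lowest and highest library as a bar, for 96 liver libraries of 8 sets, the 24 liver libraries of AL B and CR-day A, and 24 BAT libraries. mt-Cytb had the highest and mt-Nd6 the lowest median in both tissues, and mt-Nd5 lay relatively lower in BAT.

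The balance between the transcripts differed between tissues. The ratio of mt-Nd5 to mt-Nd4 in RPKM, 2 complex I subunits whose genes lie next to each other apart from tRNAs, ran from 0.323 to 0.767 in BAT (median 0.526) and from 0.806 to 1.57 in liver (median 1.16). The ranges did not overlap, and every BAT library lay below every liver library. How often ratios of other gene pairs separate the tissues was not counted. The ratio of mt-Cytb to mt-Nd4 was alike in the 2 tissues, with medians of 2.46 in BAT and 2.48 in liver. The ratio of mt-Co1 to mt-Cytb had a median of 0.385 in BAT and 0.585 in liver, but in liver it also followed the sets: its median was 0.766 in AL B and CR-day A and 0.556 in the other 8 sets.

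All 7 transcripts were higher in BAT than in liver in both regimens that had both tissues. Tests and CPM values from here on, other than sums of cell type markers, use scaling by TMM. This normalisation sets the bulk of genes equal between libraries, so a difference is relative to the other transcripts. CPM were scaled within each tissue, and the tissues were tested in a fit of their own. That fit took liver and BAT libraries as independent, and whether both tissues came from the same mice was not tested. In bulk tissue, more mitochondria-rich cells and more transcript per cell cannot be told apart. As a share of counted reads, mt-Cytb ran from 13.6 to 19.5% in BAT (median 16.8%) and from 2.27 to 10.1% in liver (median 5.94%). mt-Co1 ran from 6.51 to 10.6% in BAT (median 8.66%) and from 2.49 to 6.35% in liver (median 4.40%). For both genes every BAT library lay above every liver library. How many of all genes separated the tissues in this way was not counted. The shares of mt-Nd5, from 3.56 to 7.82% in BAT and from 1.67 to 7.46% in liver, overlapped between the tissues.

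Under AL the log2 difference of BAT against liver was 2.52 ± 0.28 (SE) for mt-Nd6, 2.44 ± 0.25 for mt-Nd4, 2.24 ± 0.22 for mt-Cytb and 2.22 for both mt-Nd1 and mt-Nd2, or 4.67- to 5.76-fold. It was smaller for mt-Co1, 1.63 ± 0.15 or 3.09-fold, and for mt-Nd5, 1.32 ± 0.23 or 2.49-fold. All 7 passed the edgeR quasi-likelihood test with Benjamini-Hochberg adjustment over all genes, at a threshold of 0.05, where 36.5% of the 12799 genes tested were higher in BAT. Under CR-day all 7 were again higher, where 35.3% of genes were, with log2 differences from 1.21 for mt-Nd5 to 2.18 for mt-Cytb. Using only liver libraries with the letter of the BAT libraries (A under AL, B under CR-day), the differences were smaller, from 0.91 for mt-Nd5 to 1.96 for mt-Nd6 under AL and from 0.67 for mt-Nd5 to 1.66 for mt-Cytb under CR-day. All 7 still passed, where 79.4% of genes under AL and 81.1% under CR-day were called in either direction.

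The nuclear partners of these subunits were also higher in BAT. All 36 nuclear subunits of complex I tested were higher under AL with a median log2 difference of 1.82, all 9 of complex III with 1.88 and all 13 of complex IV with 1.94, against a median of -0.10 over all genes. Among them Ndufs1, an iron-sulphur subunit of complex I, was higher by 2.03 on the log2 scale, the complex III core subunit Uqcrc2 by 1.90, and Cox6b1 of complex IV by 2.51. Cox7a1, the complex IV isoform known from heart, muscle and brown fat, was higher by 7.76. Of 37 tested genes that replicate, transcribe or process mitochondrial nucleic acids, 19 were higher and 6 lower in BAT under AL, and 17 higher and 8 lower under CR-day. Over all genes, 41.9% were lower in BAT under AL and 41.4% under CR-day. Those with the smallest p under AL were higher: the exonuclease Mgme1 of mitochondrial DNA upkeep by 1.44, the termination-factor family member Mterf2 by 3.03, the RNA helicase Supv3l1 by 0.93 and the transcription factor Tfb2m by 1.28 on the log2 scale.

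In BAT, none of the 7 was called between CR-day and AL, where 6.56% of 10966 genes were called in either direction. mt-Nd6 ran from 982.7 to 2426 CPM under AL (median 1622) and from 802.2 to 2458 under CR-day (median 1422), mt-Nd1 from 78660 to 133400 under AL (median 98660) and from 73840 to 111300 under CR-day (median 95700), and mt-Nd5 from 34770 to 83050 under AL (median 53550) and from 34870 to 96020 under CR-day (median 57170). The regimens overlapped for every member. The log2 differences lay between -0.13 for mt-Nd6 (95% interval -0.40 to 0.15) and 0.21 for mt-Nd5 (-0.11 to 0.53). No member had an unadjusted p under 0.05 by the edgeR quasi-likelihood test, against 2326 of 10966 genes, and none was called by DESeq2. All AL libraries of BAT were marked A and all CR-day libraries B, so letter and regimen cannot be told apart in BAT.

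Few of the nuclear partners were called in that BAT comparison. Of complex I, 3 of 36 were lower under CR-day, the iron-sulphur subunits Ndufs8 (by 0.29) and Ndufs7 (0.30) and the accessory subunit Ndufa3 (0.28), as log2 differences, and none was higher. Of complex IV, Cox7a1 fell by 0.48 and the isoform Cox8b by 0.40 on the log2 scale, isoforms that skeletal muscle also makes, and the summed skeletal muscle markers were lower in CR-day as well. The share of muscle RNA in these differences was not tested. Of the 37 genes of mitochondrial nucleic acids, only Fastk, of a family of mitochondrial RNA-binding proteins, was called, lower by 0.31 on the log2 scale.

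The difference between the BAT response and the liver response to CR-day was tested itself. None of the 7 was called with all libraries, where 2.16% of 12799 genes were, and no member had an unadjusted p under 0.05, against 1576 genes. DESeq2 called none either. The estimates ran from -0.75 for mt-Nd6 (95% interval -1.57 to 0.07) to -0.07 for mt-Cytb (-0.71 to 0.58) on the log2 scale. With liver letters matched to BAT, mt-Nd1 (-0.69, adjusted p = 0.0106 in edgeR's quasi-likelihood fit) and mt-Nd6 (-0.85, adjusted p = 0.00805) were called, where 12.1% of genes were.

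In liver, the letters of AL differed for every member. mt-Nd6 ran from 299.2 to 750.5 CPM in the A libraries of AL (median 431.3) and from 98.9 to 212.4 in the B libraries (median 153.4). mt-Co1 ran from 28580 to 50920 CPM in A (median 36480) and from 15380 to 28480 in B (median 23440). The 2 letters did not overlap for either gene. They did for mt-Nd5, which ran down to 16180 CPM in A and up to 20130 in B. How many of all genes separated the letters in this way was not counted. All 7 were lower in B, by 0.70 on the log2 scale for mt-Co1 to 1.53 for mt-Nd6, by the edgeR quasi-likelihood test with Benjamini-Hochberg adjustment, where 27.6% of 11926 genes were lower.

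The letters of CR-day differed the other way and by more. mt-Nd6 ran from 160.3 to 253.3 CPM in the A libraries of CR-day (median 178.3) and from 409.7 to 1213 in B (median 720.6), and mt-Co1 from 18930 to 27730 in A (median 25790) and from 30400 to 62150 in B (median 46980). Again the letters did not overlap for these genes, and separation over all genes was again not counted. All 7 were higher in B, by 0.92 for mt-Co1 to 1.98 for mt-Nd6 on the log2 scale, or 1.89- to 3.94-fold, where 39.0% of genes were higher.

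The letters of the other 3 regimens were closer. In CR-night, mt-Nd2 was higher (0.45, adjusted p = 0.0206 by edgeR) and mt-Nd6 lower (-0.54, adjusted p = 0.00971) in B, where 13.3% of genes were called in either direction. In TR-day only mt-Nd1 was called, higher in B by 0.40 on the log2 scale, where 15.0% of genes were called. In TR-night again only mt-Nd1 was called, higher in B by 0.32, where 21.1% of genes were.

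Across the regimens of liver, the members were lowest under AL when all libraries were used. mt-Nd5 ran from 9592 to 72320 CPM under AL (median 19970), from 12660 to 71590 under CR-day (median 21620), from 35800 to 75320 under CR-night (median 54530), from 29850 to 101700 under TR-day (median 55980) and from 43870 to 74290 under TR-night (median 57840). mt-Cytb had medians of 30390 CPM under AL, 30440 under CR-day, 60880 under CR-night, 73720 under TR-day and 71380 under TR-night. For both genes the ranges of AL and CR-day spanned those of their 2 letters and overlapped with the other regimens.

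Markers of other cell types also differed between AL and these regimens. The sums below are in CPM of the library total, without TMM scaling. The summed level of 5 macrophage markers had medians of 66.75 CPM in AL A and 122.0 in AL B, of 82.38 in CR-day A and 40.05 in CR-day B, and between 25.38 and 43.1 in the 6 sets of CR-night, TR-day and TR-night. That of 3 blood markers had medians of 83.49 and 120.7 CPM in AL A and B, 78.19 and 42.99 in CR-day A and B, and between 38.26 and 48.07 in the 6 other sets. Against AL, 4 of 5 macrophage markers were lower in each of CR-night, TR-day and TR-night, and 2, 3 and 3 of the 3 blood markers. Under CR-day no macrophage marker and 1 blood marker were lower. Their part in the members' differences was not tested.

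All 7 transcripts were higher than under AL in 3 regimens by the edgeR quasi-likelihood test with Benjamini-Hochberg adjustment. Under CR-night the log2 differences ran from 0.63 for mt-Co1 to 1.36 for mt-Nd6, where 38.1% of 11926 genes were higher, under TR-day from 0.73 for mt-Co1 to 1.26 for mt-Nd6, where 38.3% were, and under TR-night from 0.70 for mt-Co1 to 1.30 for mt-Nd5, where 39.4% were. With counts summed for each regimen and letter, which leaves 2 values per regimen, none of the 7 was called in any comparison with AL, and at most 28 of 14437 genes were. Under CR-day 3 of 7 were higher, where 12.6% of genes were: mt-Nd1 by 0.48, mt-Nd2 by 0.44 (adjusted p = 0.0468 in edgeR's quasi-likelihood fit) and mt-Nd6 by 0.64 on the log2 scale. With the letter as a replicate block, only mt-Nd6 of these 3 passed (0.62, adjusted p = 0.0277 by edgeR), where 18.6% of genes were called. These comparisons share the AL libraries. mt-Co1 had the smallest difference of the 7 in each of the 3 regimens in which all were higher.

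The CR-day result was the opposite in the letters taken singly. With letter A alone all 7 were lower under CR-day than under AL, by 0.62 for mt-Co1 to 1.26 for mt-Nd4 on the log2 scale, where 59.6% of genes were called in either direction. With letter B alone all 7 were higher, by 1.01 to 2.27, where 76.9% of genes were called. Hence no single direction holds for CR-day against AL over the letters.

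Without the sets AL B and CR-day A, the differences from AL were smaller than with all libraries in CR-night, TR-day and TR-night, and 27 of 28 members and regimens were called. AL B was set apart by its low share of these same transcripts, so smaller differences follow from the choice. CR-night gave log2 differences from 0.28 for mt-Cytb to 0.79 for mt-Nd6 with all 7 called, where 61.3% of genes were called in either direction. TR-day gave 0.43 for mt-Co1 to 0.80 for mt-Nd5 with all 7 called, where 64.1% were, and TR-night 0.37 for mt-Nd6 to 0.88 for mt-Nd5 with all 7 called, where 64.9% were. CR-day gave 0.25 for mt-Cytb, which was not called (adjusted p = 0.101 in edgeR's quasi-likelihood fit), to 0.74 for mt-Nd6, with 6 called, where 47.4% of genes were. AL then had only letter A, whose median GC index still lay above that of every other set left.

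With the GC index as a covariate, most calls against AL were lost. The median index of both AL sets (-0.99 in A, -0.08 in B) lay above every set of CR-night, TR-day and TR-night (-1.915 to -2.59). The covariate therefore cannot tell GC makeup from regimen in these comparisons. mt-Nd6 under CR-night was the only member still called, higher by 0.53 on the log2 scale (adjusted p = 0.0389 in edgeR's quasi-likelihood fit), where 12.8% of genes were called in either direction. None was called under CR-day, where 12.0% of genes were, under TR-day, where 9.7% were, or under TR-night, where 5.0% were. Estimates under CR-night then ran from -0.12 for mt-Cytb to 0.53.

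**Figure D3:**
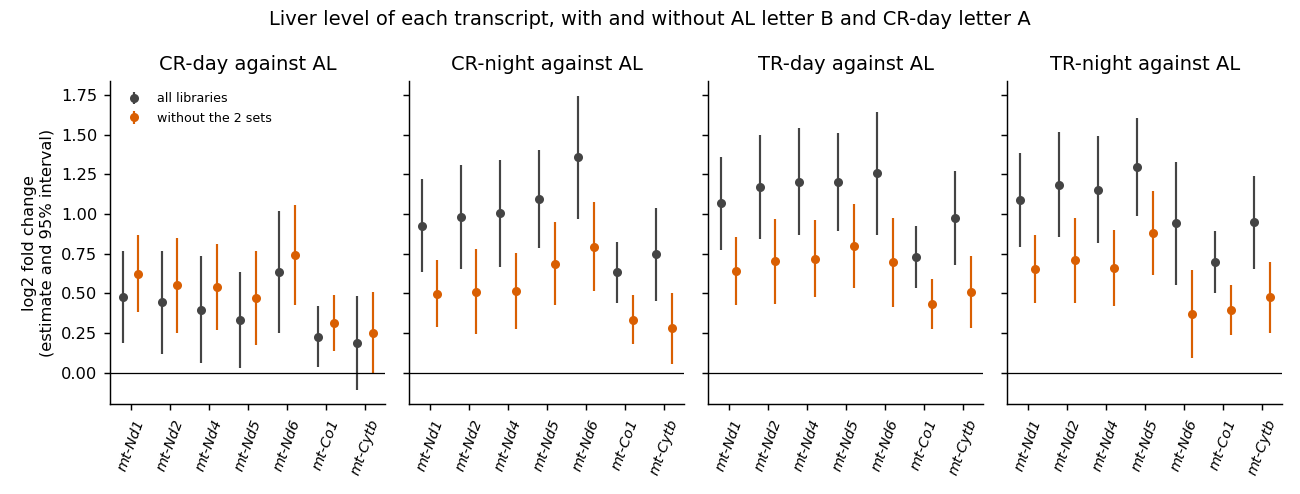
Log2 difference from liver AL for each transcript in CR-day, CR-night, TR-day and TR-night, with 95% intervals, for all libraries and without the sets AL B and CR-day A. With all libraries the points of CR-night, TR-day and TR-night lie between 0.63 and 1.36, and without the 2 sets between 0.28 and 0.88.

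Restricted regimens were also compared with each other. With all libraries, all 7 were lower under CR-day than under CR-night, by 0.40 for mt-Co1 to 0.76 for mt-Nd5 on the log2 scale, where 30.1% of genes were lower, and lower under CR-day than under TR-day, by 0.50 for mt-Co1 to 0.87 for mt-Nd5, where 31.0% were. Without AL B and CR-day A none of the 7 was called in either comparison, where 4.96% of genes were called against CR-night and 1.4% against TR-day. The differences then lay between -0.22 for mt-Nd5 and 0.13 for mt-Nd1 against CR-night, and between -0.32 for mt-Nd5 and 0.05 for mt-Nd6 against TR-day. Of the libraries left out, only the A libraries of CR-day belong to these comparisons. They were set apart by their low share of these same transcripts, so a smaller deficit of CR-day follows from the choice.

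Day was compared with night within TR, and CR with TR at night. None of the 7 was called for TR-day against TR-night, where 3.42% of genes were called, with estimates from -0.09 for mt-Nd5 to 0.32 for mt-Nd6 (95% interval -0.07 to 0.70) and no member at an unadjusted p under 0.05 by edgeR. None was called for CR-night against TR-night, where 0.52% of genes were called. There mt-Nd6 ran from 600.9 to 1203 CPM in the A libraries (median 897.8) and from 418.9 to 1112 in the B libraries (median 587.1) of CR-night, and from 381.1 to 1054 (median 481.4) and from 453.0 to 924.9 (median 559.4) in those of TR-night. The letters thus differed, with medians far apart in A and close in B, and the log2 difference was 0.75 with letter A alone and 0.043 with letter B alone. With all libraries mt-Nd6 was 0.42 higher on the log2 scale under CR-night (95% interval 0.03 to 0.80, adjusted p = 0.51 in edgeR's quasi-likelihood fit), the only member with an unadjusted p under 0.05, and the other 6 lay between -0.20 and -0.07. Without AL B and CR-day A, which changes the shared estimate of spread, mt-Nd6 passed (0.42, adjusted p = 0.0443 by edgeR), where 0.931% of genes did. DESeq2, run on all libraries, called no member in either comparison.

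The nuclear partners of the 7 transcripts were called in both directions in liver. Over all genes, 41.1% were lower than under AL under CR-night, 42.1% under TR-day, 41.3% under TR-night and 6.98% under CR-day, beside the 38.1, 38.3, 39.4 and 12.6% that were higher. Under CR-night against AL, 8 of 36 nuclear complex I subunits were higher and 20 lower, 2 of 9 of complex III were higher and 6 lower, and 4 of 12 of complex IV were higher and 6 lower. TR-night gave 10 higher and 21 lower, 2 and 7, and 3 and 5. TR-day gave 11 and 19, 2 and 7, and 3 and 5. GC content is given beside the genes named. Under CR-night the complex IV subunits Cox8a (58.5% GC) and Cox6a1 (62.7% GC) fell by 2.27 and 1.49 and the complex I subunit Ndufa11 (58.0% GC) by 2.04, while Cox6c of complex IV (46.8% GC) was higher by 1.195, all on the log2 scale. Under CR-day against AL, 2 of complex I were higher and 1 lower, 1 of complex III was higher, and 1 of complex IV was higher and 1 lower.

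Genes that copy, transcribe and process mitochondrial nucleic acids were called in both directions, beside the same shares of all genes. Of 37 tested, 21 were higher and 10 lower under CR-night, 23 and 9 under TR-day and 23 and 10 under TR-night, while 5 were higher and none lower under CR-day. Under CR-night the pentatricopeptide protein Ptcd3 (42.0% GC) was higher by 0.81 and the mitochondrial poly(A) polymerase Mtpap (44.0% GC) by 0.67, whereas the mitochondrial RNA polymerase Polrmt (60.5% GC) fell by 1.65 and Fastk (57.4% GC) by 1.24 on the log2 scale. Under CR-day the DNA-packaging transcription factor Tfam was higher by 0.25, Tfb2m by 0.38, the termination-factor family member Mterf1a by 0.53 and Trmt10c, which acts in tRNA processing, by 0.37.

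Of 12 regulators of mitochondrial biogenesis, 5 were higher and 5 lower under CR-night and under TR-night, 5 and 7 under TR-day, and 3 and 1 under CR-day. The shares of all genes stand beside these counts as well, such as 38.1% higher and 41.1% lower under CR-night. The coactivator Ppargc1a (41.7% GC) was higher than under AL by 0.63 under CR-day, 1.16 under CR-night and 1.03 under TR-night on the log2 scale, and Gabpa (41.4% GC), a subunit of nuclear respiratory factor 2, by 0.41, 1.01 and 0.92. The nuclear receptor Esrra (50.3% GC) was lower by 1.64 under CR-night. The part of GC content in these list counts was not tested.

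Rhythm was tested by fitting a 24 h wave to each regimen. In BAT under AL, mt-Co1 and mt-Nd6 were rhythmic, where 10.5% of 10966 genes were. Relative to its mean, mt-Co1 lay between 1.16 and 1.37 at 0 h, 0.77 and 0.88 at 4 h, 0.72 and 0.78 at 8 h, 0.87 and 0.93 at 12 h, 1.12 and 1.16 at 16 h, and at 1.12 and 1.14 at 20 h, with 1 library from each day. Every library at 16, 20 and 0 h thus lay above every library at 4, 8 and 12 h, on both days. The amplitude from mean to peak was 0.36 ± 0.07 on the log2 scale, 1.64-fold from trough to peak, with a peak at 20.1 ± 0.71 h and an adjusted p of 0.0264 by the edgeR quasi-likelihood test.

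mt-Nd6 peaked a little earlier by its estimate. Under AL it lay at 0.61 and 0.72 of its mean at 4 h and 0.62 and 0.73 at 8 h, 0.97 and 1.05 at 12 h, 1.17 and 1.51 at 16 h, 1.07 and 1.35 at 20 h and 0.87 and 1.32 at 0 h. The 4 libraries at 4 and 8 h were the lowest. Its amplitude was 0.53 ± 0.15, 2.09-fold from trough to peak, with a peak at 18.01 ± 1.07 h (adjusted p = 0.0386 in edgeR's quasi-likelihood fit). mt-Cytb (amplitude 0.35, peak 19.8 h, adjusted p = 0.0882) and mt-Nd4 (0.35, peak 21.0 h, adjusted p = 0.0987) were not called by edgeR, although their unadjusted p was under 0.05.

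In BAT under CR-day, mt-Nd6 alone was rhythmic, where 15.1% of genes were. It lay at 1.35 and 1.68 of its mean at 16 h and 1.11 and 1.54 at 20 h, above its libraries at all other hours, of which the highest stood at 1.06 at 8 h. Its amplitude was 0.48, 1.93-fold from trough to peak, with a peak at 17.8 ± 1.32 h (adjusted p = 0.0468 in edgeR's quasi-likelihood fit). The peak of mt-Nd6 was thus estimated within 1 h of that under AL. mt-Co1 had an amplitude of 0.26 and a peak at 1.35 ± 1.01 h under CR-day and was not called (adjusted p = 0.124 by edgeR). Its level at 0 h of the day rested on 1 library, at 1.26 of its mean. The 0 h library without counts, which is not in the fit, had the lowest mt-Co1 RPKM of all BAT libraries.

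No member's rhythm change between BAT CR-day and AL passed the test, where 12.1% of genes passed. mt-Co1 came nearest (adjusted p = 0.0813 in edgeR's quasi-likelihood fit), then mt-Cytb (adjusted p = 0.105), and both had an unadjusted p under 0.05. DESeq2 called both of these changes, where it called 16.0% of genes. The BAT rhythm calls changed with the setting. Without the BAT AL libraries at 20 and 28 h, mt-Co1 alone was called under AL, where 6.84% of genes were. None was then called under CR-day, where 15.0% were. No member was called in either regimen with 1 day alone, where 0.645 to 1.75% of genes were. None was under AL with library totals alone, where 20.6% were, or under CR-day with the GC index, where 6.86% were. DESeq2 called 4 under AL, where it called 14.9% of genes, and 2 under CR-day, where it called 19.2%. The peak estimates under AL were 20.1 h for mt-Co1 and 19.8 h for mt-Cytb, and under CR-day 1.35 h and 4.07 h. With 1 mouse per collection time, and letter and regimen not told apart, the BAT rhythms rest on 2 libraries per hour of the day, 1 at 0 h under CR-day.

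**Figure D4:**
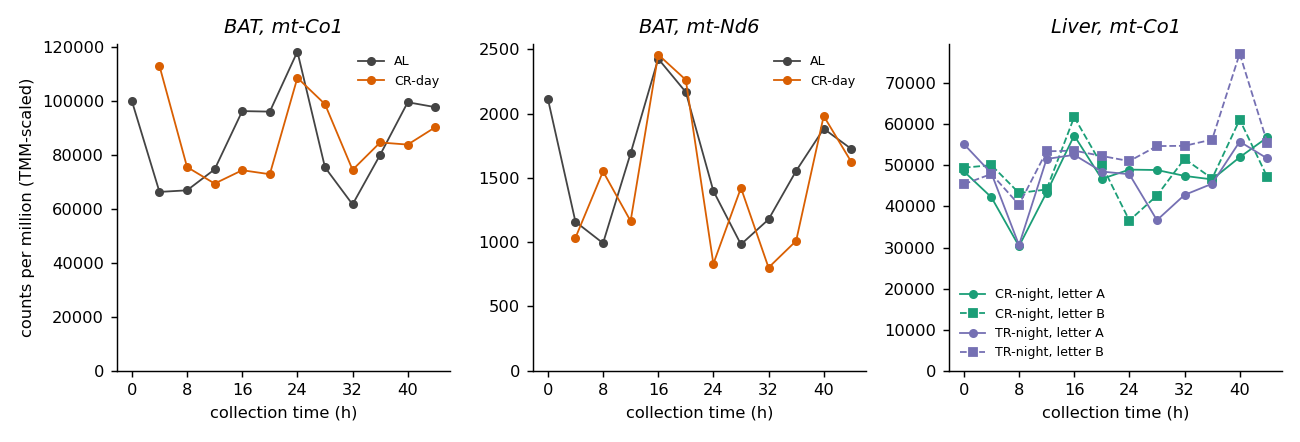
CPM against collection time in hours for BAT mt-Co1 and mt-Nd6 under AL and CR-day and for liver mt-Co1 under CR-night and TR-night by letter, 1 point per library. In BAT under AL, mt-Co1 is high at 16, 20 and 0 h and low at 4 to 12 h on both days, and mt-Nd6 under both regimens is highest at 16 and 20 h.

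In liver, none of the 35 combinations of member and regimen was rhythmic, and none had an unadjusted p under 0.05, by the edgeR quasi-likelihood test. The share of all genes called was 12.4% under AL, 16.4% under CR-day, 35.3% under CR-night, 15.5% under TR-day and 26.4% under TR-night. Nor was any of the 42 tests of a rhythm change called. Against AL, the share of all genes called was 21.9% for CR-day, 16.3% for TR-day, 0.0252% for CR-night and 0.00839% for TR-night. Between day and night feeding it was 34.0% for CR and 25.8% for TR. DESeq2 called no member in liver either.

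The distance between the letters adds to the spread against which a liver rhythm is tested. With an intercept for each regimen and letter, 4 members' rhythms were called in edgeR's quasi-likelihood fit: mt-Nd1 under CR-day (adjusted p = 0.00248), where 26.1% of genes were, mt-Co1 (adjusted p = 0.0498) and mt-Nd2 (adjusted p = 0.0486) under CR-night, where 50.8% were, and mt-Co1 under TR-night (adjusted p = 0.0223), where 39.1% were. mt-Co1 peaked at 17.7 h under CR-night with an amplitude of 0.17 and at 17.6 h under TR-night with 0.20 on the log2 scale. Relative to the mean of its regimen and letter, mt-Co1 at 16 h lay between 1.10 and 1.27 under CR-night and between 1.00 and 1.44 under TR-night over 4 libraries, and at 8 h between 0.64 and 1.06, and 0.65 and 1.02. In each of these fits the share of all genes called was above that of the 7 members.

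Rhythm in the other genes of the pathway is given beside all genes, of which 12.4, 16.4, 35.3, 15.5 and 26.4% were rhythmic in liver under AL, CR-day, CR-night, TR-day and TR-night, and 10.5 and 15.1% in BAT under AL and CR-day. Of the 37 genes of mitochondrial nucleic acids, 3 were rhythmic under AL, 6 under CR-day, 15 under CR-night, 7 under TR-day and 11 under TR-night, and in BAT 4 under AL and 8 under CR-day. Among the 36 nuclear complex I subunits, none was rhythmic in liver under AL, 5 under CR-day and under CR-night, and 1 under TR-day and under TR-night, while in BAT 9 were under AL and 4 under CR-day.

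The members varied less from library to library than most genes in liver, without matching for abundance. Within regimen and letter, the SD of log2 CPM ran from 0.223 for mt-Co1 to 0.356 for mt-Nd5 and mt-Nd6, against a median of 0.38 over all genes. In BAT it ran from 0.212 for mt-Nd1 to 0.503 for mt-Nd6, with a median of 0.323 over all genes. Across libraries, centred in the same way, mt-Nd4 and mt-Cytb varied together with r = 0.917 over 120 liver and 0.935 over 23 BAT libraries. mt-Co1 and mt-Nd2 had r = 0.177 in liver and 0.457 in BAT. mt-Nd6 went with the other 6 at r between 0.215 and 0.458 in liver and between -0.285 and 0.153 in BAT. These correlations are descriptions, since all members share the depth and makeup of each library.

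The nuclear genes whose levels were most like the mean of the 7 over the 120 liver libraries, centred within regimen and letter, were Cox6c (r = 0.825), Uqcrb of complex III (0.794), the antigen-presentation subunit B2m (0.755), Cat, which codes for catalase (0.754), and Atg3 of autophagy (0.729). Among the most opposed were Myo9b (-0.724), Cep170b (-0.682), Cttn (-0.677) and Emilin1 (-0.654). Of 11488 nuclear genes the middle value was -0.05, with 5% below -0.42 and 5% above 0.46. The 5 most alike had 40.1 to 48.7% GC and the 4 opposed genes named 53.1 to 61.1%, and library GC makeup is shared by all points of these correlations.

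The members' summed share and the library GC index were also related within some sets of 12 or 11 libraries, with 12 relations tested by 100000 permutations each. Pearson's r was negative and passed Benjamini-Hochberg adjustment in 5 sets by the permutation test: CR-night B (-0.796, adjusted p = 0.018), AL A (-0.736, adjusted p = 0.037), TR-day B (-0.721, adjusted p = 0.037), BAT CR-day (-0.709, adjusted p = 0.037) and TR-day A (-0.68, adjusted p = 0.037). Spearman's rho in these sets was -0.769, -0.469, -0.587, -0.673 and -0.566, and none passed adjustment (smallest adjusted permutation p = 0.058). Without the 2 libraries farthest from the median index, r was -0.736, -0.367, -0.43, -0.449 and -0.475. That step also narrows the range of the index, so it cannot tell how far the relation rested on those libraries. In the other 7 sets r lay between -0.476 and 0.215. In BAT under AL it was -0.015.

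**Figure D5:**
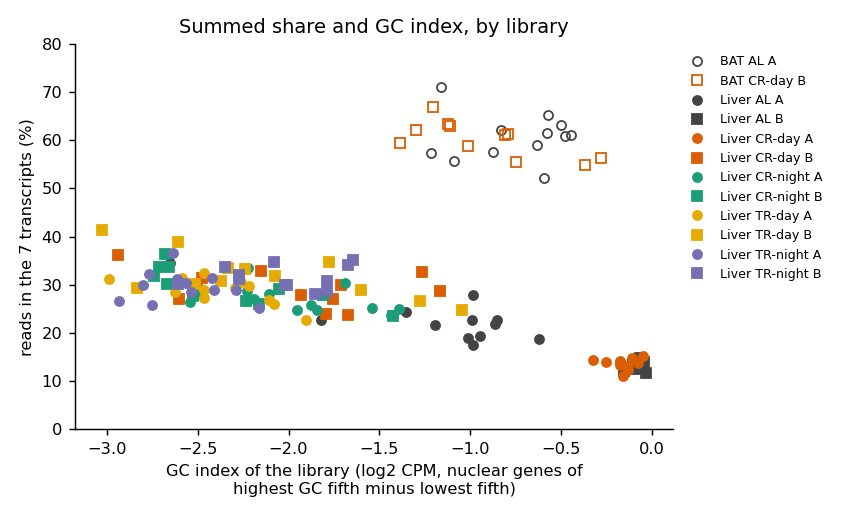
Summed share of the 7 transcripts in counted reads (percent) against the GC index (log2 CPM) computed in each tissue by itself, 1 point per library, coloured by set. The liver sets AL B and CR-day A lie at indices near 0 with shares of 10.99 to 15.1%, and the other liver sets lie at lower indices with higher shares.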

How the data were processed

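The authors deposited raw counts per gene and RPKM per library, per the file headers; FastQC, cutadapt, STAR and featureCounts are named in the submitters' processing notes, and versions, genome build, strand and multi-mapping settings are not given in the sources used here. In 143 of 143 libraries the deposited RPKM and counts differed only by gene length and a factor per library. A further count column, identical to a liver CR-day library, was not used. Counts were tested with edgeR 4.0.16 in R 4.3.3 (quasi-likelihood test, TMM scaling, filterByExpr, Benjamini-Hochberg adjustment over all genes), with a mean and a 24 h wave (cosine and sine) for each group. Genes tested numbered 11926 for liver, 10966 for BAT and 12799 for both tissues together. Peaks and amplitudes are least squares fits to log2 CPM with a prior count of 2. Of the fits, only that of liver was tested on simulated data, with level differences and rhythms under CR-day. The simulated counts held no difference between letters, so they do not bear on calls where the letters differ. DESeq2 1.42.0, other scalings, filters, days, letters, blocks and a GC covariate were alternatives. Nuclear copies were searched with blastn 2.17.0 in GENCODE vM21 transcripts. All 7 members were named; of each list up to 4 genes with the smallest p in a comparison were eligible, and of the other genes the 5 most alike and the 5 most opposed, of which 1 is not reported here. The members and lists were chosen with earlier results of these data known. Replicates are separate mice per the file headers for liver. Reads carry no molecular identifiers, so depth speaks for counting error only.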

Additional observations from a re-analysis of the deposited data

How the results depend on the processing

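BAT against liver kept its direction for all 7 transcripts under all 12 settings run in each regimen, with 1 lost call (mt-Nd5 under CR-day with day 1 alone, adjusted p = 0.111). Those settings called 61.4 to 85.7% of all genes. BAT CR-day against AL stayed without a call under 11 settings, which called 0.0459 to 9.3% of genes. The liver comparisons depended on letters and GC makeup. The share of all genes called in either direction is given in brackets. Of 7 members, those higher under CR-day than AL numbered 3 with all libraries (19.6%). With library totals alone (11.8%), no filter (10.9%), scaling to nuclear reads (19.0%) or without TR-day A at 0 and 44 h (19.2%), 2 were. With the GC index (12.0%), day 1 alone (4.36%) or day 2 alone (5.52%), 0 were. With letter A alone (59.6%) or sums of each regimen and letter (0.194%), 0 were as well. Without distant libraries (19.5%) 5 were. Distant libraries had residuals over 4 median absolute deviations above the median: AL 0 h A and 12 h B, CR-day 8 h B and 44 h B. With regimen by letter intercepts (41.9%) or without AL B and CR-day A (47.4%) 6 were, and 7 with letter B alone (76.9%). With letter A alone 7 were lower there: mt-Nd1 -0.94, mt-Nd2 -1.05, mt-Nd4 -1.26, mt-Nd5 -0.999, mt-Nd6 -1.25, mt-Co1 -0.62 and mt-Cytb -1.16. Those higher under CR-night numbered 7 (79.2%), and 5 with letter A alone (52.5%), 1 with the GC index (12.8%) and 0 with the sums (0.125%). Under TR-day (80.4%) and TR-night (80.7%) they numbered 7, and 6 under TR-night with letter A alone (71.0%). With the index 0 were higher under TR-day (9.7%) and TR-night (5.0%), as with the sums (0.159 and 0.0%). With the GC index mt-Cytb (-0.122), mt-Nd2 (-0.065) and mt-Nd4 (-0.014) under CR-night and mt-Nd6 (-0.014) under TR-night changed sign. The sums leave 2 values per regimen and called at most 28 of 14437 genes. Those lower under CR-day than CR-night numbered 7 (67.9%). They numbered 0 with the GC index (7.04%), day 1 alone (32.7%), letter B alone (2.28%) or the sums (0.0%). Without AL B and CR-day A (4.96%) they numbered 0 too. Those lower than TR-day numbered 7 (69.5%), and 6 with day 1 alone (51.8%). They numbered 0 with the GC index (0.495%), letter B alone (0.0%), the sums (0.0%) or without the 2 sets (1.4%). Signs changed for mt-Nd1 (0.13), mt-Nd2 (0.04) and mt-Nd4 (0.023) against CR-night and mt-Nd6 (0.046) against TR-day without the 2 sets, for mt-Nd2 (0.088) with the GC index and for mt-Nd6 (0.25) with letter B alone, both against CR-night. TR-day against TR-night gave 0 calls (3.42%), and 1 higher with intercepts by letter (6.44%). CR-night against TR-night gave 0 (0.52%). It gave 1 higher with the GC index (1.78%), intercepts by letter (2.26%) or without the 2 sets (0.931%). With letter A alone (36.4%) 1 was higher and 1 lower there.

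Same-numbered libraries of different liver regimens share only the collection hour and letter. The median correlation of their deviations was 0.015 over 240 pairs, over 0.1 in 88, against -0.007 for other pairs. Liver and BAT libraries were not compared in this way. With letter (18.6% of all genes called), or hour and letter (13.2%), as a replicate block, 1 member was higher under CR-day than AL in liver. With hour as a replicate block (7.67%) 2 members were called in the difference of responses. These were mt-Nd1 (-0.71, adjusted p = 0.0208 by edgeR) and mt-Nd6 (-0.88, adjusted p = 0.0191). With matched letters 2 were called (12.1%), against 0 with all libraries (2.16%).

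Rhythmic members in liver numbered 0 of 35, and 5 with the GC index, 1 with letter B alone and 4 with intercepts by letter. Over the 5 regimens, 24.4 to 48.9% of all genes were called with the index. With letter B alone 4.92 to 23.0% were, and with the intercepts 20.4 to 50.8%. Changed rhythms numbered 0 of 42, 7 with the GC index, 0 with letter B alone, 3 with intercepts and 1 without the 2 sets. Over all genes the shares were 0.0587 to 49.9% with the index and 0.00839 to 48.2% with the intercepts. Without the 2 sets they were 0.0 to 31.4%. In BAT under AL 2 were rhythmic (10.5% of all genes), 4 with DESeq2 (14.9%) and 3 with the GC index (12.7%). Without the distant libraries (AL 20 h and 28 h) 1 was (6.84%). None was with day 1 alone (0.726%), day 2 alone (0.781%) or library totals alone (20.6%). Under CR-day 1 was (15.1%), and 2 with DESeq2 (19.2%). None was with the GC index (6.86%), day 1 alone (0.645%), day 2 alone (1.75%) or without those libraries (15.0%). Changed rhythms in BAT numbered 0 (12.1%), and 2 with DESeq2 (16.0%). Shares from the deposited RPKM, which rest on a larger read total, had medians of 51.2% in BAT, 12.1% in the 2 liver sets apart and 24.5% in the other 8. Library totals alone moved the median of all genes by -0.45 on the log2 scale for BAT against liver under AL and by -0.31 for CR-night against AL. The causes of these changes were not tested beyond what the settings themselves leave out.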

Other observations

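The BAT library of CR-day at 0 h, which has RPKM but no counts, took part in no test. Its mt-Co1 level was 30200 RPKM, the lowest of the 24 BAT libraries, whose highest was 59090 RPKM.

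The counted reads of the other 6 protein-coding genes of the mitochondrial chromosome varied little with the mean of the 7 transcripts. This was over the 120 liver libraries, centred within regimen and letter. Whether reads lost in counting played a part was not tested. The correlation was 0.212 for mt-Atp6, 0.149 for mt-Atp8, 0.148 for mt-Co2, 0.119 for mt-Co3, 0.169 for mt-Nd3 and -0.018 for mt-Nd4l, against 0.562 (mt-Nd6) to 0.953 (mt-Nd4) for the 7 themselves, which are part of that mean.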
